A study of Homo sapiens with 6 samples.

Results

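Polyamine metabolism was followed through 10 genes, chosen by name as a list of pathway members that is linked to MYCN in neuroblastoma: the synthesis genes ODC1, AMD1, SRM and SMS, the catabolism genes SAT1, PAOX and SMOX, the antizyme genes OAZ1 and OAZ2, and the antizyme inhibitor gene AZIN1. They are 10 of the 58302 genes in the deposited tables, the rule that chose them used no measured value, and all 10 had a mean of 1 FPKM or more over the 6 samples and so entered the tests. FPKM is the unit of every level below. It is the number of fragments counted on a gene, scaled to its exon length and to a factor per sample. The exon length takes in all annotated exons of a gene, not only those of the transcripts expressed here. Levels of different genes can therefore be compared only roughly. The cells were SK-N-BE(2), an established human neuroblastoma line in which MYCN is amplified. RNA-seq was available for 3 samples transfected with a negative control siRNA (NC) and 3 samples transfected with siRNA against Prp19 (siPrp19), a protein of a complex that acts in pre-mRNA splicing, encoded by PRPF19. The labels give a transfection time of 72 h and replicate numbers 1 to 3 in each group, whereas the study's methods give a shorter time and describe the replicates as biological. In these 6 samples Prp19 was lowered only transiently by siRNA in 1 cell line, while the study also worked with SK-N-AS cells. The study chose the first of its siRNAs against Prp19 for its later assays without naming the siRNA again for sequencing. The question was whether the genes of the polyamine pathway changed in level when Prp19 was lowered, and how they varied among these samples.

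Polyamines (putrescine, spermidine and spermine) are small, positively charged molecules that bind RNA and DNA and are needed for growth. Ornithine decarboxylase (ODC1) forms putrescine, decarboxylated S-adenosylmethionine from AMD1 supplies the groups that SRM and SMS add to form spermidine and spermine, and SAT1, PAOX and SMOX take polyamines apart again. Antizymes bind ornithine decarboxylase and send it to the proteasome, antizyme inhibitor binds the antizymes in its place, and ODC1 is a long known transcriptional target of the MYC family in neuroblastoma.

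The libraries held 19058732 to 21943931 recovered reads on genes with NC and 22273007 to 24181789 with siPrp19. PRPF19 itself stood at 53.1, 53.1 and 64.9 FPKM with NC and at 21.8, 28.5 and 33.6 FPKM with siPrp19, so the groups did not overlap and no sample went against its label. Its mean log2 difference, siPrp19 minus NC, was -1.04 (SD over pairs 0.21, n = 3 pairs; adjusted p = 0.9999 in limma without a block, 0.190 with a block for the replicate number, 0.0176 in that fit on genes averaging 5 FPKM or more and 1.38e-11 in voom with the block). All 12 markers of adrenergic neuroblastoma cells had a mean above 1 FPKM, with summed levels of 1415 to 1895 FPKM with NC and 1449 to 1944 FPKM with siPrp19. Of the markers of other cells, 5 of 7 fibroblast and mesenchymal genes were also above 1 FPKM (summed 101.7 to 121.5 FPKM with NC and 94.2 to 120.0 FPKM with siPrp19), against 0 of 5 blood and immune, 1 of 4 epithelial and 0 of 3 endothelial genes, with CD3E and KRT5 at 0 in every sample. Replicate 3 stood apart from replicates 1 and 2 in both groups on the first principal component, which held 49.9% of the variance. In bulk RNA, fewer cells expressing a gene and less RNA per cell cannot be told apart.

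None of the 10 genes changed past an FDR of 0.05 in limma without a block (adjusted p = 0.9999 for each by the Benjamini-Hochberg method), and in none did the NC and siPrp19 samples separate. The same fit called 0% of the 14462 genes tested, beside 225 with p under 0.05 before adjustment, and PRPF19 was not called either. Within same-numbered pairs ODC1, SRM, PAOX and SMOX were higher with siPrp19 in all 3 pairs and AMD1 and SMS were lower in all 3, while SAT1, OAZ1, OAZ2 and AZIN1 differed in sign between pairs. On the TPM scale 3 members, not 2, were lower in all 3 pairs. Of all tested genes 19.2% were higher in all 3 pairs and 21.3% lower in all 3, and the groups did not overlap for 5.61%. The median log2 difference of the 10 genes was -0.06, beside -0.0040 over all tested genes. The common scale of the deposited values keeps this second median small, whatever the siRNA did. With the replicate number as a block limma again called 0% of genes at that FDR, with 6.89% of genes higher and 8.77% lower at an unadjusted p under 0.05. At that unadjusted level ODC1 and SRM were higher and no member was lower. When genes averaging under 5 FPKM were left out, the block fit called 1.57% of 7913 genes and none of the 8 members that remained (lowest adjusted p = 0.110). When limma voom was run with the block on reads recovered from the FPKM values, 7.01% of 14432 genes were called, and ODC1 was the one member among them (adjusted p = 0.0335), no longer past the threshold when any pair was left out.

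**Figure D1:**
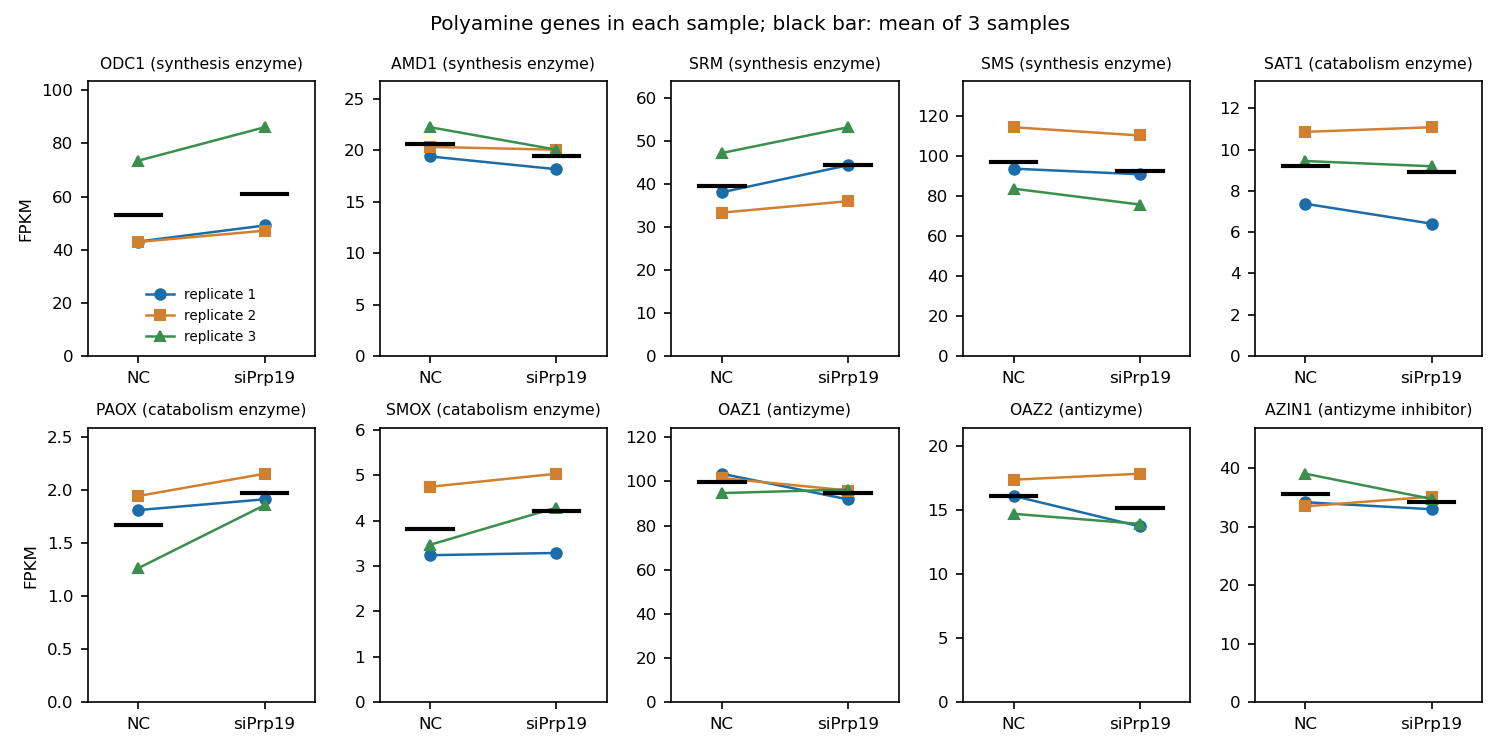
Level of the 10 polyamine genes in each sample, in FPKM on axes that start at 0, with lines joining samples of the same replicate number and black bars for the mean of 3 samples. ODC1 in replicate 3 stood at 73.5 FPKM with NC and 86.1 FPKM with siPrp19, above every sample of replicates 1 and 2, which lay between 42.9 and 49.1 FPKM.

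The promoter windows of ODC1 and SRM are shown because of the members higher in all 3 pairs these had the smallest SD over pairs, and because of the 7 members with a window only these held CACGTG, the E-box bound by MYC and MAX proteins. The windows are RefSeq sequences on GRCh38.p14, each 300 bases from 250 before to 50 after a transcript start, read 5′ to 3′ along the gene, with CACGTG in capitals. The ODC1 window lies on the minus strand at chr2:10447963-10448262 and the SRM window on the minus strand at chr1:11059969-11060268.
ODC1: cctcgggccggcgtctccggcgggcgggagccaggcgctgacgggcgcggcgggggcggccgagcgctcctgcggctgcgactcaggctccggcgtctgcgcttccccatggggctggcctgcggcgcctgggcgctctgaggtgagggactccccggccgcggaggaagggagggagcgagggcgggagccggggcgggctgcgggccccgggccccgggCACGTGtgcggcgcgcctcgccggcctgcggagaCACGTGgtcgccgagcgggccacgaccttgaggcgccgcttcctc
SRM: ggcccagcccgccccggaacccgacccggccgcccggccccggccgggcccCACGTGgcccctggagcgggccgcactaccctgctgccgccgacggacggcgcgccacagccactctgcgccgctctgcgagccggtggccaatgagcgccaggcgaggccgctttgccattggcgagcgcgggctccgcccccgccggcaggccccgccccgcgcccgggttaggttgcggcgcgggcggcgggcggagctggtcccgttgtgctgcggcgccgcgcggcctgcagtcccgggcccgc
The copies in ODC1 began at positions -29 and 5 from the transcript start and the copy in SRM at position -199. CACGTG reads the same on both strands, so each copy is counted once. A second ODC1 window, at the start of another transcript, held no copy. Windows were found for 7 of the 10 members (10 windows), and none for PAOX, SMOX and AZIN1. PAOX and SMOX were also higher in all 3 pairs, so whether the members that rose hold the letters more often cannot be seen. The windows of AMD1, SMS, SAT1, OAZ1 and OAZ2 held no copy, which says only that these letters are not in those 300 bases. The letters occurred in 7.26% of all 35116 windows and in at least 1 window of 13.1% of the 9312 tested genes with a window. Those 1217 tested genes had a median log2 difference of -0.0061 between siPrp19 and NC, beside -0.0040 for the 8095 without it. Of the genes with the letters, 18.5% were higher in all 3 pairs, beside 20.9% of the genes without them.

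The synthesis genes come first. ODC1 (ENSG00000115758), whose enzyme makes putrescine from ornithine, spans 10439968 to 10448504 on chromosome 2, minus strand, in GENCODE 29 (GRCh38). It stood at 43.1, 42.9 and 73.5 FPKM in NC replicates 1, 2 and 3 and at 49.1, 47.1 and 86.1 FPKM in siPrp19 replicates 1, 2 and 3. Both replicate 3 samples were high, and the groups overlapped, since NC replicate 3 exceeded siPrp19 replicates 1 and 2. The means were 53.2 ± 17.6 FPKM with NC and 60.8 ± 21.9 FPKM with siPrp19 (SD, n = 3), a difference smaller than either SD (two-sided exact permutation p = 0.5, where 0.1 is the smallest p that 3 against 3 samples allow). Within pairs, however, ODC1 was 14.05%, 9.84% and 17.1% higher with siPrp19. The mean log2 difference was 0.18 with an SD over pairs of 0.046, narrow beside the median SD of 0.13 over all tested genes. Its 95% interval ran from -0.56 to 0.93 in limma without the block and from 0.07 to 0.29 with it (unadjusted p = 0.0080, adjusted p = 0.211). In voom with the block its adjusted p moved from 0.0335 to 0.264, 0.0891 and 0.0967 without pairs 1, 2 and 3. ODC1 rested on 2243 to 6338 reads a sample, and its pseudogene ODCP was listed at no more than 0.734 FPKM.

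SRM (ENSG00000116649), spermidine synthase, spans 11054584 to 11060024 on chromosome 1, minus strand. Its levels were 38.0, 33.3 and 47.1 FPKM with NC and 44.3, 36.0 and 53.1 FPKM with siPrp19. As with ODC1, both replicate 3 samples were the highest of their group and the groups overlapped. The means were 39.5 ± 7.04 FPKM and 44.5 ± 8.59 FPKM (SD, n = 3; two-sided exact permutation p = 0.5). SRM was higher with siPrp19 by 16.6%, 7.98% and 12.7% in pairs 1, 2 and 3, a mean log2 difference of 0.17 (SD over pairs 0.055). The limma interval with the block was 0.05 to 0.28 (unadjusted p = 0.0142, adjusted p = 0.225), and voom with the block gave an adjusted p of 0.0897. The pseudogene SRMP2 was listed at up to 0.473 FPKM, far below SRM.

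AMD1 and SMS were lower with siPrp19 in every pair, by small amounts. AMD1 (ENSG00000123505) encodes S-adenosylmethionine decarboxylase and spans 110874770 to 110895713 on chromosome 6, plus strand. It stood at 19.4, 20.3 and 22.2 FPKM with NC and at 18.2, 20.1 and 20.1 FPKM with siPrp19. The 6 samples lay close together and the groups overlapped. AMD1 differed by -6.39%, -1.34% and -9.80% in the 3 pairs, with means of 20.7 ± 1.45 FPKM and 19.4 ± 1.10 FPKM (SD, n = 3; two-sided exact permutation p = 0.4). Its 95% interval in limma with the block, -0.22 to 0.04 on the log2 scale, included 0. The pseudogene AMD1P3 was listed at up to 0.784 FPKM.

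SMS (ENSG00000102172), spermine synthase, spans 21940573 to 21994835 on the X chromosome, plus strand. Its levels of 93.8, 114.6 and 83.8 FPKM with NC faced 91.0, 110.4 and 75.8 FPKM with siPrp19. Replicate 2 was the highest and replicate 3 the lowest in both groups, the reverse of the order of ODC1 and SRM in those replicates. The differences within pairs were -3.00%, -3.61% and -9.49%, a mean log2 difference of -0.08 (limma interval with the block -0.19 to 0.03). Its means were 97.4 ± 15.7 FPKM and 92.4 ± 17.3 FPKM (SD, n = 3; two-sided exact permutation p = 0.7).

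**Figure D2:**
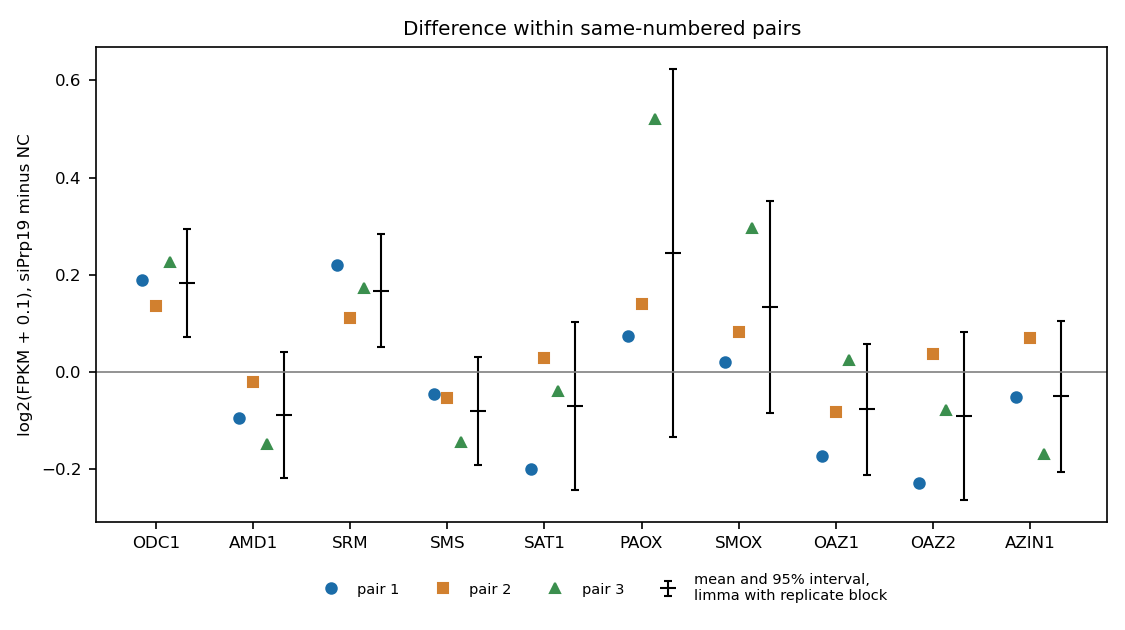
Difference in log2(FPKM + 0.1), siPrp19 minus NC, of each gene in the 3 same-numbered pairs (coloured points), with the mean and 95% interval of limma with the replicate number as a block (black). The intervals of ODC1 (0.07 to 0.29) and SRM (0.05 to 0.28) lie above 0, and those of the other 8 genes include 0.

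Of the catabolism genes, SAT1 (ENSG00000130066; plus strand of the X chromosome, 23783173 to 23786226) encodes spermidine/spermine N1-acetyltransferase, which marks polyamines for breakdown and export. It stood at 7.38, 10.9 and 9.45 FPKM with NC and at 6.41, 11.1 and 9.20 FPKM with siPrp19. The order of the replicates, with 2 highest and 1 lowest, was the same in both groups and the groups overlapped throughout. SAT1 differed by -13.1%, 2.06% and -2.69% in the 3 pairs. Its interval of -0.24 to 0.10 on the log2 scale (limma with the block) leaves a fall of that size, or a smaller rise, possible. Its means were 9.23 ± 1.75 FPKM and 8.90 ± 2.35 FPKM (SD, n = 3; two-sided exact permutation p = 0.8).

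PAOX (ENSG00000148832; plus strand of chromosome 10, 133379234 to 133391694) encodes the peroxisomal oxidase that acts on acetylated polyamines and was the lowest member. It stood at 1.81, 1.95 and 1.27 FPKM with NC and at 1.91, 2.15 and 1.86 FPKM with siPrp19. NC replicate 3 was well below the other 5 samples. PAOX was 5.60%, 10.8% and 46.9% higher with siPrp19 in pairs 1, 2 and 3, so that its mean log2 difference of 0.25, the largest of the members, rested mostly on pair 3 (SD over pairs 0.24). With pair 3 left out, limma with the block gave 0.11 for PAOX, beside 0.16 for ODC1 and 0.17 for SRM. PAOX also rested on only 57 to 105 reads a sample, and its limma interval with the block ran from -0.13 to 0.62.

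SMOX (ENSG00000088826; plus strand of chromosome 20, 4120980 to 4187747), spermine oxidase, had 3.24, 4.74 and 3.47 FPKM with NC and 3.29, 5.03 and 4.28 FPKM with siPrp19. Replicate 2 was the highest in both groups, and the groups overlapped. The differences were 1.54%, 6.04% and 23.5%, again with the largest in pair 3, and the mean log2 difference was 0.13 (SD over pairs 0.14; limma interval with the block -0.08 to 0.35). SMOX rested on 202 to 313 reads a sample.

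The genes that regulate ornithine decarboxylase as a protein had mean log2 differences a little below 0 (OAZ1 -0.08, OAZ2 -0.09 and AZIN1 -0.05), with signs that were mixed between pairs. OAZ1 (ENSG00000104904; plus strand of chromosome 19, 2269509 to 2273490), the major antizyme, was the most abundant member at 103.5, 101.5 and 94.7 FPKM with NC and 91.8, 95.9 and 96.3 FPKM with siPrp19. The NC samples were lowest in replicate 3 and the siPrp19 samples lowest in replicate 1, and 1 NC value fell within the siPrp19 range. OAZ1 differed by -11.2%, -5.56% and 1.70% in the 3 pairs, with means of 99.9 ± 4.59 FPKM and 94.7 ± 2.48 FPKM (SD, n = 3; two-sided exact permutation p = 0.3). Its limma interval with the block was -0.21 to 0.06 on the log2 scale. Exons of OAZ1 share 236 bases with JSRP1 on the opposite strand, listed at up to 0.972 FPKM, and the library kit does not mark strand.

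OAZ2 (ENSG00000180304; minus strand of chromosome 15, 64687573 to 64703281), a second antizyme, stood at 16.1, 17.4 and 14.7 FPKM with NC and at 13.7, 17.8 and 13.9 FPKM with siPrp19. The siPrp19 samples held both the highest and the lowest values. The pairs differed by -14.8%, 2.67% and -5.34% (limma interval with the block -0.26 to 0.08 on the log2 scale). AZIN1 (ENSG00000155096; minus strand of chromosome 8, 102826357 to 102893864) stood at 34.2, 33.5 and 39.1 FPKM with NC and at 33.0, 35.2 and 34.8 FPKM with siPrp19. Apart from NC replicate 3, its 5 other samples lay within a narrow band. The pairs differed by -3.50%, 4.93% and -11.0%, with a limma interval with the block of -0.20 to 0.10. Its antisense gene AZIN1-AS1 shares 344 exon bases with it and was listed at up to 0.727 FPKM.

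In order of level over the 6 samples, OAZ1 (mean 97.3 FPKM) and SMS (94.9 FPKM) came first and did not differ beyond their spread, with OAZ1 above SMS in 4 of 6 samples. ODC1 (57.0 FPKM), SRM (42.0 FPKM) and AZIN1 (35.0 FPKM) followed with overlapping ranges, although ODC1 exceeded SRM in all 6 samples. AMD1 (20.0 FPKM), OAZ2 (15.6 FPKM), SAT1 (9.07 FPKM), SMOX (4.01 FPKM) and PAOX (1.82 FPKM) then stood in that order in every sample, without overlap between neighbours. Among the 14462 tested genes OAZ1 lay at percentile 97.8, SMS at 97.7 and ODC1 at 95.7 of mean level, against 39.0 for SMOX and 17.4 for PAOX. Between these lay SRM at 93.7, AZIN1 at 92.3, AMD1 at 84.3, OAZ2 at 78.8 and SAT1 at 64.1. OAZ1, AZIN1 and the synthesis genes ODC1, SRM and SMS thus stood among the highest tested genes, with the synthesis gene AMD1 somewhat lower. The oxidase genes stood in the lower part.

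Replicate number accounted for more of the variation than the siRNA in 9 of the 10 genes. Of the sum of squares of log2(FPKM + 0.1) over the 6 samples, the replicate number held 94.2% for ODC1 and the siRNA 5.53%, leaving 0.235% as residual. For SRM the shares were 86.2% and 12.9%, for SMS 95.1% and 3.70%, and for SAT1 95.6% and 1.52%. OAZ1 was the exception, with 10.7% for the replicate number, 42.6% for the siRNA and 46.7% residual. The medians over the 10 genes were 81.5% for the replicate number and 9.70% for the siRNA, beside 80.9% and 5.68% over all tested genes. These shares are descriptions, and no test was made of them.

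**Figure D3:**
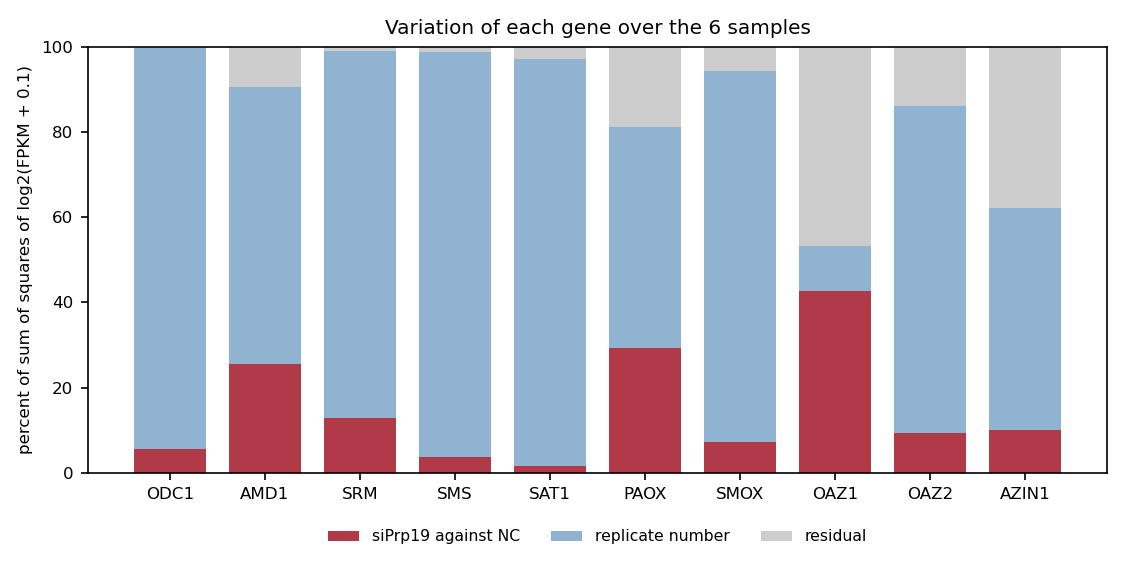
Percent of each gene's sum of squares of log2(FPKM + 0.1) over the 6 samples that falls to the siRNA, to the replicate number and to the residual. The replicate number holds 94.2% for ODC1 and 10.7% for OAZ1.

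The replicate that stood apart in the whole data also stood apart in ODC1. Replicate 3 exceeded the mean of replicates 1 and 2 by 0.77 with NC and by 0.84 with siPrp19 in ODC1, on the log2 scale. The corresponding values were 0.41 and 0.41 in SRM, -0.31 and -0.40 in SMS, and -0.53 and -0.12 in PAOX. Over all tested genes the median absolute difference was 0.31 with NC and 0.30 with siPrp19. In 2862 of 14462 genes replicate 3 differed by more than 0.5 in both groups, whatever the sign in either group. ODC1 was the one member among them. What set replicate 3 apart is not given in the labels and was not tested.

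Ratios between members within a sample do not depend on how samples were scaled, and 7 were computed. The ratio OAZ1/ODC1, antizyme over its target, was 2.40, 2.37 and 1.29 with NC and 1.87, 2.03 and 1.12 with siPrp19. It was lower with siPrp19 in all 3 pairs (mean log2 difference -0.26, SD over pairs 0.087), and replicate 3 was low in both groups. The ratio SRM/SMS was 0.405, 0.291 and 0.563 with NC and 0.487, 0.326 and 0.701 with siPrp19, higher in all 3 pairs (mean log2 difference 0.25). AMD1/ODC1 was lower in all 3 pairs (-0.28, -0.15 and -0.38 on the log2 scale), with a mean of 0.409 with NC and 0.343 with siPrp19. Its mean log2 difference was -0.27, or -0.02 when siPrp19 replicate 3 alone was left out, which breaks pair 3. SAT1/ODC1 was lower in all 3 pairs too (means 0.184 and 0.158), as was SMOX/PAOX (means 2.32 and 2.12). OAZ2/OAZ1 (means 0.161 and 0.160) and AZIN1/OAZ1 (means 0.358 and 0.362) differed in sign between pairs. For none of the 7 did the groups separate, and the two-sided exact permutation p adjusted over the 7 was between 0.84 and 1. ODC1 enters 3 of these ratios, so their common direction is not independent.

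**Figure D4:**
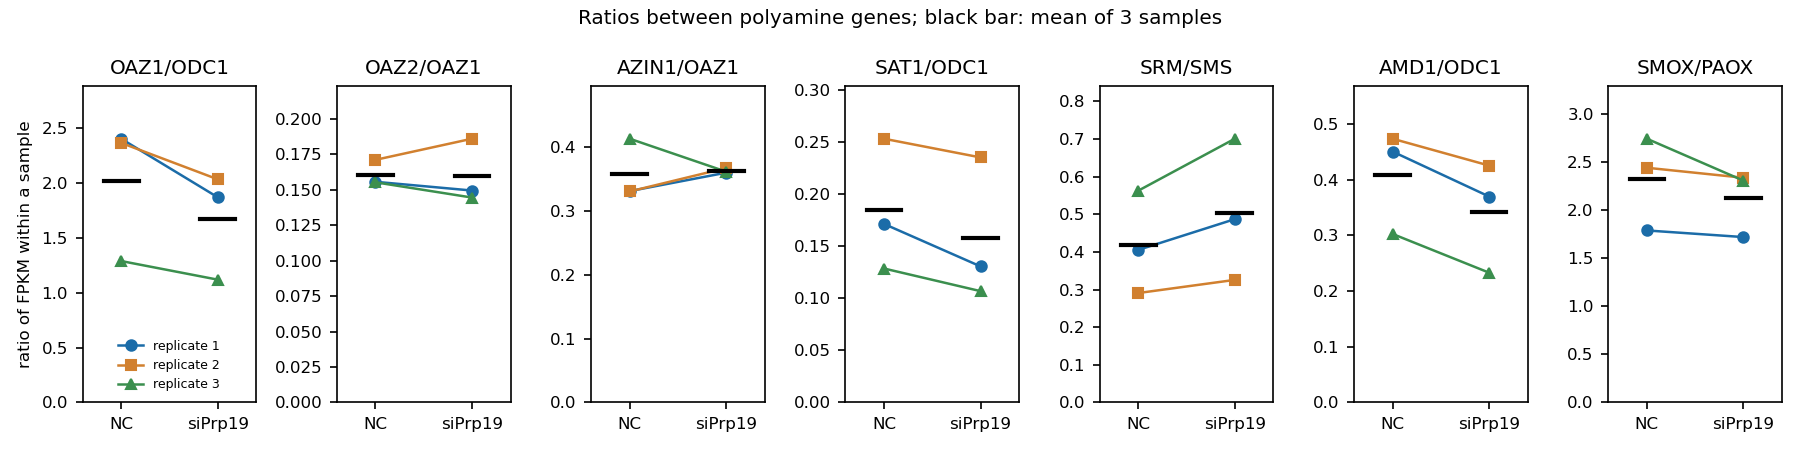
Ratio of FPKM between 2 polyamine genes in each sample, for 7 ratios on axes that start at 0, with lines joining samples of the same replicate number and black bars for the mean of 3 samples. OAZ1/ODC1 is lower at siPrp19 on each line, with means of 2.02 and 1.67, while its samples range from 1.12 to 2.40.

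The MYC factors were measured in the same samples. MYCN stood at 958.5, 849.5 and 1167 FPKM with NC and at 1215, 801.5 and 1104 FPKM with siPrp19. It was higher with siPrp19 in pair 1 and lower in the other pairs, with a mean log2 difference of 0.06 (SD over pairs 0.24; limma with the block, adjusted p = 0.796). MYC, at 1.65, 3.73 and 0.792 FPKM with NC and 0.924, 2.79 and 0.833 FPKM with siPrp19, was far below MYCN, and its partner MAX differed by a mean of -0.01. ODC1 was higher with siPrp19 in the pairs in which MYCN was lower as well as in the pair in which it was higher.

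Of the 14461 other tested genes, those with the profile over the 6 samples most like that of ODC1 were TRIM26, PPP1R10 and MAPRE1. Their root mean square differences from ODC1 in centred log2(FPKM + 0.1) were 0.030, 0.057 and 0.058, where the median gene differed by 0.436. TRIM26 stood at 7.14, 6.92 and 12.4 FPKM with NC and at 8.29, 8.10 and 14.1 FPKM with siPrp19, highest in replicate 3 of both groups as ODC1 was. The profiles nearest to SAT1 were those of GCC1 (0.035), ZNF492 (0.064) and B4GALT1 (0.067), where the median gene differed by 0.362. With 6 samples and so many genes, near matches of this kind are a description only.

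The wider pathway was taken as 33 further genes of arginine and methionine supply, methionine salvage, hypusine formation and polyamine transport and paralogues of the antizyme, antizyme inhibitor and acetyltransferase genes, of which 21 passed the filter. Without the block limma called none (adjusted p = 0.9999), with MAT2B alone at an unadjusted p under 0.05. Within pairs 8 of the 21 were lower with siPrp19 in all 3 (21.3% of all tested genes were), 4 were higher in all 3 (19.2% of all tested genes) and 9 were mixed, with a median log2 difference of -0.03 beside -0.0040 over all tested genes. The groups did not overlap for 2 of the 21, MAT2B and ENOPH1, both lower with siPrp19, beside 5.61% of all tested genes. With the block none was called either (lowest adjusted p = 0.196), with DOHH higher and ATP13A3, EIF5A2, ENOPH1, MAT2A, MAT2B and MTAP lower at an unadjusted p under 0.05. Of all tested genes 6.89% were higher and 8.77% lower at that level. The block fit on genes averaging 5 FPKM or more called MAT2B (adjusted p = 0.0483), beside 1.57% of all genes in that fit. Voom with the block called MAT2B (adjusted p = 0.000213) and ENOPH1 (adjusted p = 0.0187), beside 7.01% of all genes in that fit. In voom MAT2B was called without any 1 pair as well, while ENOPH1 was not called without pair 1 (adjusted p = 0.144) or pair 2 (adjusted p = 0.104).

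MAT2B, the regulatory subunit of the enzyme that makes S-adenosylmethionine, stood at 12.6, 13.0 and 12.7 FPKM with NC and at 9.57, 10.7 and 8.49 FPKM with siPrp19. Every siPrp19 sample was below every NC sample (two-sided exact permutation p = 0.1, the smallest possible), and the differences were -23.9%, -17.7% and -33.2%. Its catalytic partner MAT2A differed by -12.7%, -3.00% and -9.01%, with groups that overlapped. ENOPH1, an enzyme of the methionine salvage pathway that recycles the by-product of spermidine and spermine synthesis, stood at 29.5, 29.6 and 34.6 FPKM with NC and at 25.3, 24.7 and 29.1 FPKM with siPrp19. Its differences of -14.3%, -16.7% and -15.7% were nearly equal across pairs (mean log2 difference -0.24, SD over pairs 0.021). MTAP, which opens the same salvage route, had a mean log2 difference of -0.17, while APIP, a later enzyme of it, had one of 0.29 that came mostly from pair 2 (66.5% higher). EIF5A2, a translation factor that carries hypusine, and ATP13A3, a transporter of polyamines, had mean log2 differences of -0.25 and -0.16, and DOHH, which completes hypusine, one of 0.18.

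**Figure D5:**
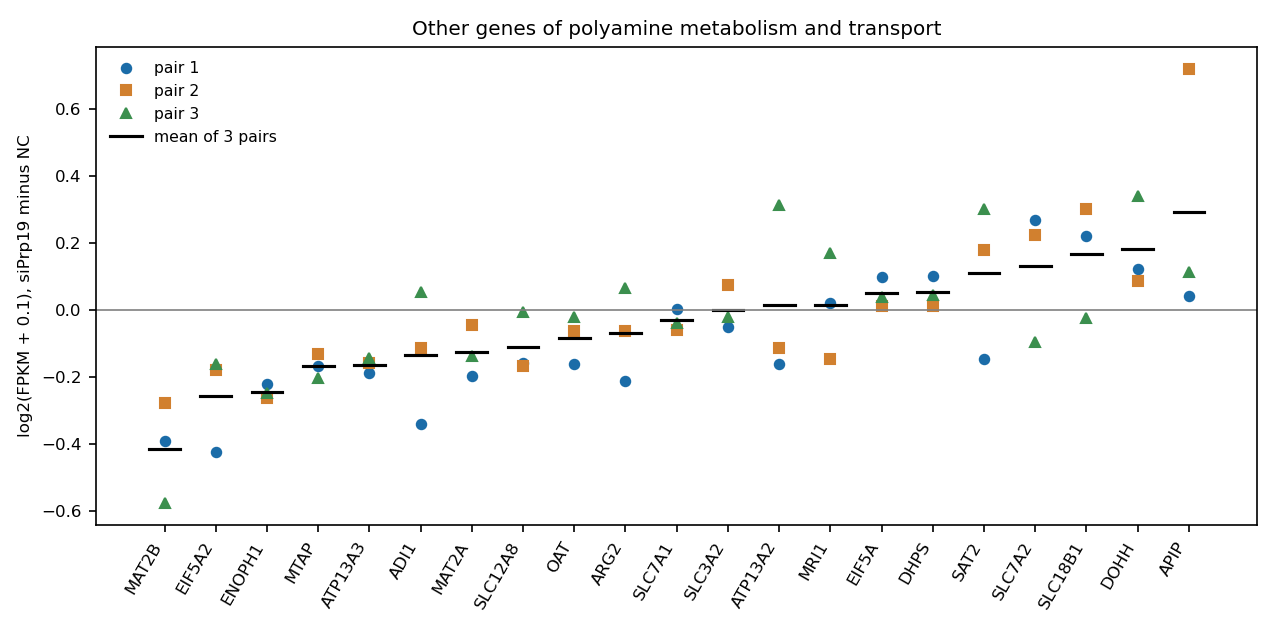
Difference in log2(FPKM + 0.1), siPrp19 minus NC, of the 21 tested genes of the wider pathway in the 3 same-numbered pairs (points) with their mean (bars), ordered by the mean. MAT2B has the lowest mean, -0.42, and APIP the highest, 0.29.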

How the data were processed

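RNA-seq of 3 NC and 3 siPrp19 samples of SK-N-BE(2) cells was analysed, with groups and replicate numbers from the sample labels. The authors deposited 1 table of FPKM values per sample. The submitters' processing notes name HISAT2 2.0.5, featureCounts 1.5.0-p3 and build hg38, and the annotation is not given in the sources used here. The study's methods name DESeq2 for the authors' own test. Of 58302 gene identifiers, 58039 were found in GENCODE 29, which gave symbols, positions and exon lengths. Values times exon length were whole multiples of 1 step per sample, within 0.1 read, in all 6 samples for 96.3% of the 37521 genes above 0, and gave the recovered reads, which were used for depth and for voom and whose number sets the counting error.

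Median-of-ratios factors were equal in all samples (1.00736), so the deposited values were already on a common median-of-ratios scale. That scale keeps the median difference over all genes small, whatever the siRNA did. The 14462 genes averaging 1 FPKM or more were tested as log2(FPKM + 0.1) with limma 3.58.1 in R 4.3.3 (eBayes with trend, Benjamini-Hochberg adjustment over all of them), without a block. Fold changes on this scale understate changes of low genes. This differs from the authors' test, which used counts, since the deposited values are FPKM. Deviations of same-numbered samples from their group means correlated (r = 0.381, 0.568 and 0.639 across genes for numbers 1, 2 and 3), so that the numbers, which come from the labels, were taken to pair the samples, and results with the block stand beside those it changes. Python 3.11.15 with scipy 1.17.1 gave the exact permutation tests, numpy 2.4.6 and pandas 2.3.3 the tables, and matplotlib 3.10.9 the plots. Alternatives were a pseudocount of 1, no filter, a mean of at least 5 FPKM, TPM, quantile normalization, the block with these filters or a pseudocount of 1, eBayes without trend and robust, voom on recovered reads, and each sample or pair left out. The limma fit was run on simulated data with planted changes larger than those of any member. That run does not show whether changes as small as those of the members would be found.

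The members, gene lists and tests were chosen with earlier results of these data known. Named were the 10 members, PRPF19, MYCN, MYC and MAX, the 8 genes of the wider pathway with the largest mean difference of 1 sign in all 3 pairs, and the 3 genes with profiles nearest to ODC1 and to SAT1. Cell markers served only to check the cell line.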

Additional observations from a re-analysis of the deposited data

How the results depend on the processing

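The member values kept their sign with a pseudocount of 1, no filter, a mean of at least 5 FPKM (PAOX and SMOX not tested), TPM, quantile normalization and voom. AZIN1 reversed with the block when pair 3 was left out (0.0090, and 0.0083 in voom). Leaving out 1 sample, which breaks a pair, gave log2 ranges of -0.10 to 0.44 for ODC1, 0.03 to 0.31 for SRM, 0.07 to 0.36 for PAOX, -0.13 to -0.03 for AMD1, -0.11 to -0.05 for OAZ1, -0.21 to -0.02 for OAZ2, -0.217 to 0.0538 for SMS, -0.24 to 0.15 for SAT1, -0.0037 to 0.30 for SMOX and -0.0918 to 0.0188 for AZIN1, and -0.0768 to 0.0619 for the median of the members. ODC1 turned negative without siPrp19 replicate 3. The ratios ranged from -0.56 to 0.0061 for OAZ1/ODC1, -0.127 to 0.0550 for OAZ2/OAZ1, -0.0274 to 0.134 for AZIN1/OAZ1, -0.59 to 0.0018 for SAT1/ODC1, -0.0234 to 0.529 for SRM/SMS, -0.48 to -0.02 for AMD1/ODC1 and -0.301 to 0.0214 for SMOX/PAOX, with 0 to 3 of the 7 ratios separating the groups. Genes called at an FDR of 0.05 numbered 124 with the block on genes of at least 5 FPKM, 1 without trend and robust, and 1012 in voom with the block (278, 639 and 1328 without pairs 1, 2 and 3). Members called numbered 1 in voom with the block, and wider pathway genes called numbered 1 with the block at 5 FPKM and 2 in voom with the block (2, 1 and 5 without pairs 1, 2 and 3, not the same genes). Limma with the block on genes of at least 5 FPKM also called PRPF19 (adjusted p = 0.0176). So did voom with the block (adjusted p = 1.38e-11). The block changed no other call named above. The block with no filter and the voom fits with a pair left out were chosen after seeing the data. The cause of these differences was not tested. PAOX, with 57 to 105 reads a sample, has the largest counting error of the members.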
